A study of Homo sapiens with 6 samples.

Results

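Collagens, laminins, thrombospondins and integrins are the chains of the extracellular matrix and of the receptors by which cells hold on to it. Their mRNAs were followed here in HEK293 cells after siRNA against circular RNAs. Members were the protein-coding genes whose symbol begins COL and a digit, LAMA, LAMB or LAMC and a digit, THBS, or ITGA or ITGB and a further character, with at least 60 counts summed over the 6 libraries. Of 63677 genes in the count table, 91 fitted by symbol and 80 by symbol and count. They were 38 collagens, 11 laminins, 4 thrombospondins, 17 integrin alpha chains, 6 integrin beta chains and 4 genes that only carry a chain's name (COL4A3BP, ITGB1BP1, ITGB1BP2 and ITGB3BP). Just inside the count minimum lay ITGAL with 60 counts and COL9A1 with 63, and just outside it ITGB2 with 56 and COL8A1 with 52. All 80 also passed the filter on low counts of the test.

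HEK293 is an established line grown from human embryonic kidney. Each group had 2 libraries, made from poly(A) RNA taken 48 hours after lipid transfection of siRNA. The control received a control siRNA, called NTC in the labels. The group siRAB3IP received siRNA to circRAB3IP and the group siCAMSAP1 siRNA to circCAMSAP1, circular RNAs made from exons of RAB3IP and CAMSAP1. The title of the series asks about circRAB3IP in cell proliferation and in mRNA processing. The labels do not tell whether replicates are separate cultures, and the p-values therefore cover only a spread that may be technical.

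The sources disagree on which library is which. The groups used here are those of the authors' deposited tables, whose normalized columns each matched 1 count column up to a factor, and replicates 1 and 2 carry the numbers of those columns. Titles of the sample records place 4 of the 6 libraries in another group, and the genotype field of the records exchanges the names of the knockdowns. Grouped by titles, 0 genes passed edgeR's quasi-likelihood test in each of the 3 comparisons. At an unadjusted p under 0.05 that grouping held 350 genes for siRAB3IP against control, 441 for siCAMSAP1 against control and 471 between the knockdowns, among them 3, 7 and 5 members. Every direction below therefore rests on the names in the deposited tables.

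The libraries held 37379217 to 39637733 counts, and members took 0.2046% to 0.2503% of them. Levels are given as CPM, the count of a gene relative to the TMM-scaled library total, and 3 counts stood for 0.0757 to 0.0803 CPM of the unscaled total. Counts of the host genes cannot tell a circular RNA from the mRNA, and poly(A) selection takes the mRNA, so they do not check the knockdown. RAB3IP measured 57.5 and 62.5 CPM in the control, 68.1 and 66.7 in siRAB3IP, and 56.3 and 61.6 in siCAMSAP1, while CAMSAP1 lay between 136 and 156 CPM in all libraries. Of 7 listed HEK293 markers in the table, 5 had a mean of at least 1 CPM, with PAX2 at 21 and NEFM at 39 counts in all. Their summed level was 1700 and 1610 CPM in the control, 1120 and 1390 in siRAB3IP, and 1390 and 1390 in siCAMSAP1, mostly from KRT8 and KRT18. Markers of fibroblasts, endothelial cells, smooth muscle and blood summed to 20.8 to 33.0, 4.31 to 9.02, 13.5 to 24.3 and 2.93 to 5.46 CPM. The fibroblast list includes the members COL1A1 and COL3A1, at 9.52 and 7.54 of the 24.9 CPM in control replicate 1. The endothelial marker PECAM1 was at 0 and the fibroblast marker DCN had 2 counts in all. The part of these marker levels in the results was not tested.

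Collagens are triple helices of alpha chains. Some form fibrils, type IV forms the network of basement membranes, and fibril-associated types such as XII sit on the surface of fibrils. Laminins are heterotrimers of an alpha, a beta and a gamma chain that form the other network of basement membranes, the sheets on which epithelial cells, including those of kidney tubules, rest. Thrombospondins are secreted matricellular proteins that modulate adhesion and growth factor activity without building fibres. Integrins are alpha-beta receptors: ITGB1 pairs with many alpha chains to bind collagen, laminin or fibronectin, and ITGAV pairs with several beta chains to bind RGD-containing ligands.

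In the control, the set was led by the receptor chain ITGB1 and the laminin chain LAMC1. Per kilobase of exon, mean control levels were 78.2 CPM per kb for ITGB1, 31.1 for LAMC1, 12.8 for COL6A1, 12.2 for ITGAV, 9.32 for COL4A2, 9.25 for ITGA6, 9.19 for LAMB1 and 8.02 for COL4A1. The leading chains of basement membranes stood above the fibrillar collagens COL5A2 at 4.65, COL5A1 at 4.10, COL3A1 at 1.36 and COL1A1 at 0.911 CPM per kb. COL1A2, the partner chain of COL1A1 in type I collagen, had 5 counts over all 6 libraries and was no member. Thrombospondin mRNAs were low, at 1.23 CPM per kb for THBS3, 0.761 for THBS2, 0.620 for THBS1 and 0.387 for THBS4. Over all libraries 63 of 80 members had a mean of at least 1 CPM, 45 of at least 5 CPM and 10 of at least 50 CPM.

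**Figure D1:**
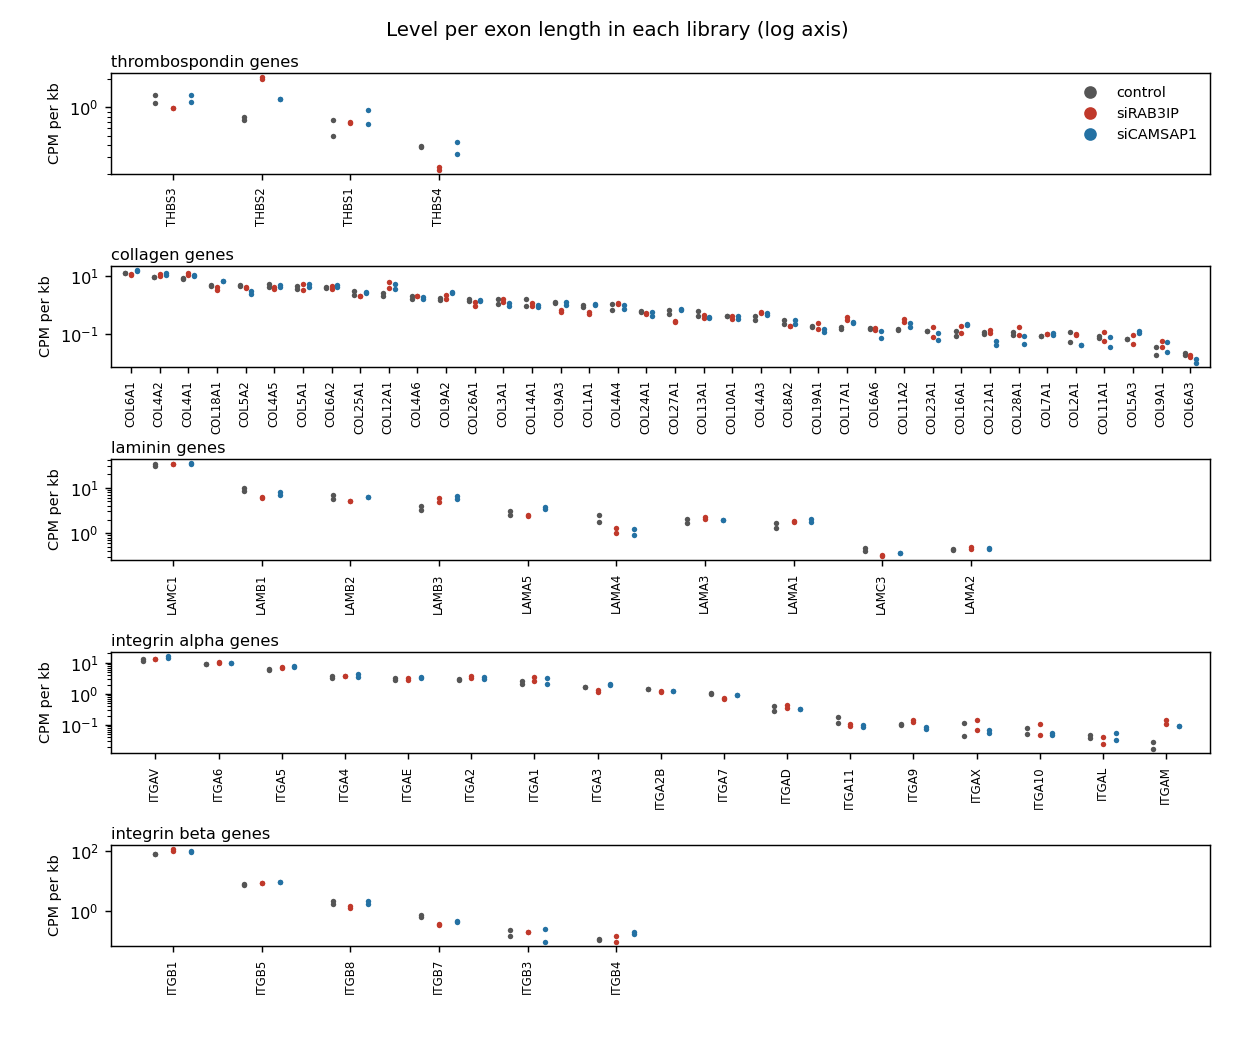
Each point is 1 library, drawn as CPM per kilobase of exon on a log axis for the chain genes reported here, ordered within a family by their control level. ITGB1 lies above every other chain in all 6 libraries, and the collagens run from 0.0206 (COL6A3) to 12.8 CPM per kb (COL6A1) in the control.

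Summed by family, integrin beta mRNAs stood at 548.9 and 574.0 CPM in the control, 680.7 and 744.4 in siRAB3IP, and 622.6 and 698.7 in siCAMSAP1, of which ITGB1 made up 87.1%. Collagen sums were 515.3 and 562.8 CPM, 533.1 and 630.8, and 589.2 and 658.4 in the same order, and laminin sums were 490.5 and 551.0, 504.2 and 505.9, and 547.3 and 542.4. Integrin alpha sums were 344.0 and 374.7, 392.7 and 399.5, and 391.7 and 434.3. Both integrin sums of the control lay below those of either knockdown without overlap. The collagen and laminin sums of siRAB3IP overlapped the control.

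Against control, members were called in both directions in siRAB3IP. Of the 80 members, 8 were higher (COL11A2, COL12A1, COL17A1, COL4A1, ITGAM, ITGB1, LAMB3 and THBS2) and 10 lower (COL1A1, COL27A1, COL9A3, ITGA3, ITGA7, ITGB7, ITGB8, LAMA4, LAMB1 and ITGB3BP) at a Benjamini-Hochberg adjusted p of 0.05. That is 22.5% of members. Of all 22331 genes tested, 6.39% were called higher and 5.24% lower, and of protein-coding genes with at least 60 counts 16.0% were called either way. The collagens, with 7 of 38 called (18.4%), and the integrin alpha chains, with 3 of 17 (17.6%), lay near that last share. In the smaller families 3 of 11 laminins, 3 of 6 integrin beta chains and 1 of 4 thrombospondins were called. The members' median log2 fold change was 0.09, beside -0.01 over all genes tested.

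Against the same control, COL18A1, LAMB3 and THBS2 rose and COL5A2 and LAMA4 fell in siCAMSAP1. These 5 are 6.25% of members, where 0.448% of all genes tested were called higher, 0.493% lower and 1.39% of protein-coding genes with at least 60 counts either way. The members' median was 0.06, beside 0.00 over all genes. Of the 23 integrin chains 0 were called here by edgeR's quasi-likelihood test, and 0 by DESeq2 or limma-voom. At an unadjusted p under 0.05 in edgeR, 7 of them were higher and 1 lower, and without the filter on low counts 1 was called higher. With the replicate number as a block 6 were called higher. The authors' deposited table for siCAMSAP1 lists ITGAV (0.33) and ITGB1 (0.26) as higher, unlike DESeq2 as run here. Both comparisons use the same 2 control libraries, so their values are set side by side below, and only the direct test of siRAB3IP against siCAMSAP1 bears on whether the knockdowns differ.

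Between the knockdowns 2 members were higher in siRAB3IP (COL5A2 and THBS2) and 9 lower (COL18A1, COL1A1, COL27A1, COL6A1, COL9A3, ITGA3, ITGB8, LAMA5 and ITGB3BP). This is 13.8% of members, near the 12.3% of protein-coding genes with at least 60 counts. Of all genes tested 4.89% were higher and 3.96% lower, and the median was 0.02 for members and -0.01 for all genes. Collagens gave 6 of the 11 calls, with 5 of them lower in siRAB3IP. These 6 were 15.8% of the 38 collagens, beside 13.8% of all members. The median over the 38 collagens was 0.11.

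**Figure D2:**
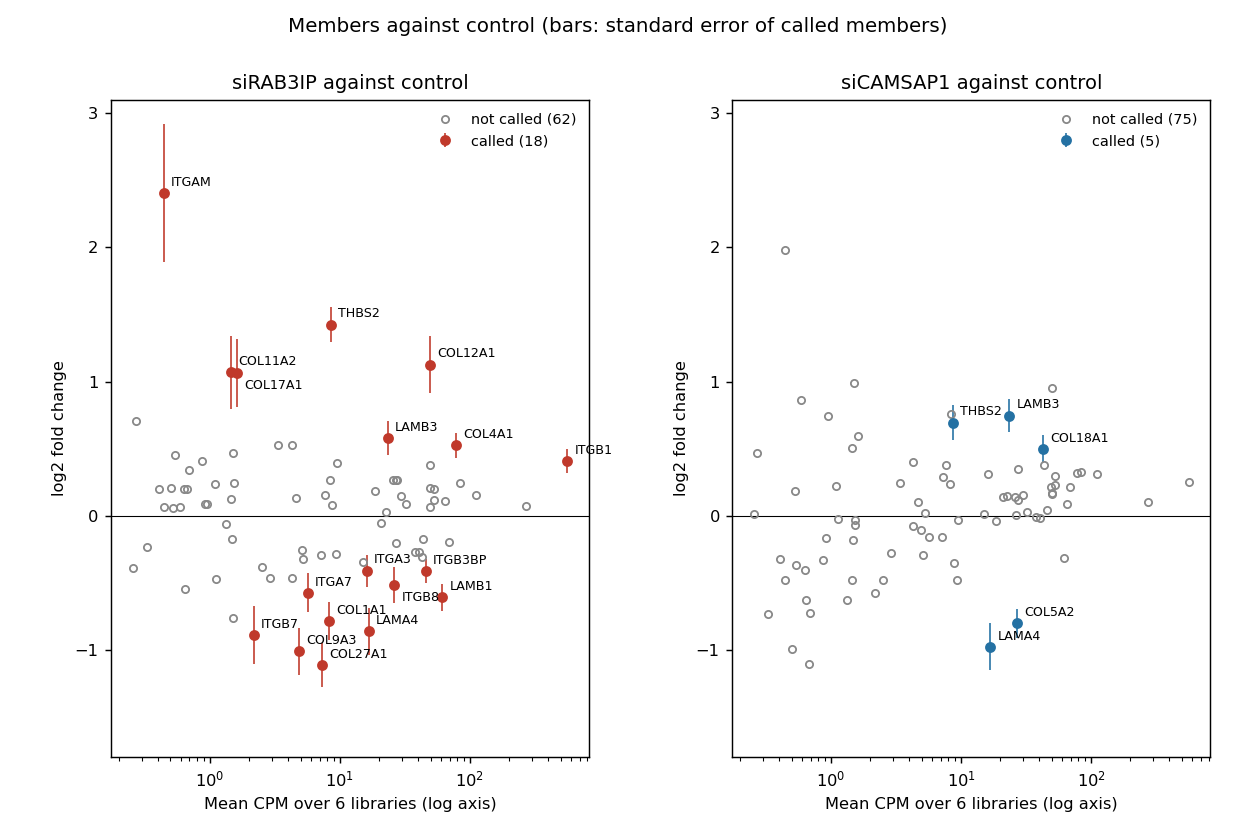
Log2 fold change of each of the 80 members against its mean CPM over 6 libraries (log axis), for siRAB3IP (18 called, 62 not) and siCAMSAP1 (5 called, 75 not), each against the shared controls. Filled points with standard error bars passed the test. Called members lie on both sides of 0, from COL27A1 at -1.11 to ITGAM at 2.41 in siRAB3IP.

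The counts of called members moved with single libraries. For siRAB3IP against control, 4 members were called higher and 6 lower without siRAB3IP replicate 1, 6 and 6 without siRAB3IP replicate 2, and 6 and 5 without control replicate 2. For siCAMSAP1 against control, 0 were called higher and 1 lower without control replicate 2, where 17 and 3 had an unadjusted p under 0.05. Higher calls there were 1 without either siCAMSAP1 library, 2 without control replicate 1 and 5 without either siRAB3IP library, and lower calls were 3 without control replicate 1 and 1 without siCAMSAP1 replicate 1. Between the knockdowns, lower calls were 5 without siRAB3IP replicate 2 and 6 without siCAMSAP1 replicate 1, and 1 member was then called higher in each case. A group left with 1 library is assumed in these fits to vary like the other groups.

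THBS2, a matricellular protein that restrains new vessels and matrix turnover, gave the largest rise among members above 1 CPM. It lies on chromosome 6 from 169615875 to 169654139 on the minus strand in hg19. Its level was 4.65 and 5.08 CPM in the control, 12.9 and 13.3 in siRAB3IP, and 7.91 and 7.85 in siCAMSAP1. The groups did not overlap, and siRAB3IP stood highest. In bulk RNA, more cells with an mRNA and more of it per cell cannot be told apart, here and for every gene below. The log2 fold change against control was 1.42 ± 0.13 (SE, n = 2 against 2, adjusted p = 8.56e-05) in siRAB3IP, a 2.68-fold rise, and 0.69 ± 0.13 (adjusted p = 0.0283) in siCAMSAP1. The knockdowns differed by 0.73 ± 0.12 (adjusted p = 0.00354). The rise in siRAB3IP and the difference between knockdowns passed in all 15 alternatives that kept the groups. The siCAMSAP1 call ended in a fit of these 2 groups alone (adjusted p = 0.068) and without control replicate 1, control replicate 2, siCAMSAP1 replicate 1 or siCAMSAP1 replicate 2 (adjusted p = 0.0988, 0.0935, 0.131 and 0.12), and THBS2 is not listed in the authors' deposited table for siCAMSAP1. Counts were made without strand, and RefSeq lists an antisense gene, THBS2-AS1, whose reads would not be told apart where the genes overlap.

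The other thrombospondins did not pass the test in any comparison. THBS1, an activator of latent TGF-beta, had 5.48 and 7.98 CPM in the control, 7.40 and 7.59 in siRAB3IP, and 7.22 and 10.3 in siCAMSAP1. THBS3, a pentameric thrombospondin of cartilage, had 5.08 and 6.12, 4.50 and 4.47, and 5.16 and 6.22 CPM. In siRAB3IP both THBS3 libraries lay below the control and those of THBS1 overlapped it. Of the THBS3 exon length 25.7% is shared with another gene, MTX1, so its counts are uncertain.

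**Figure D3:**
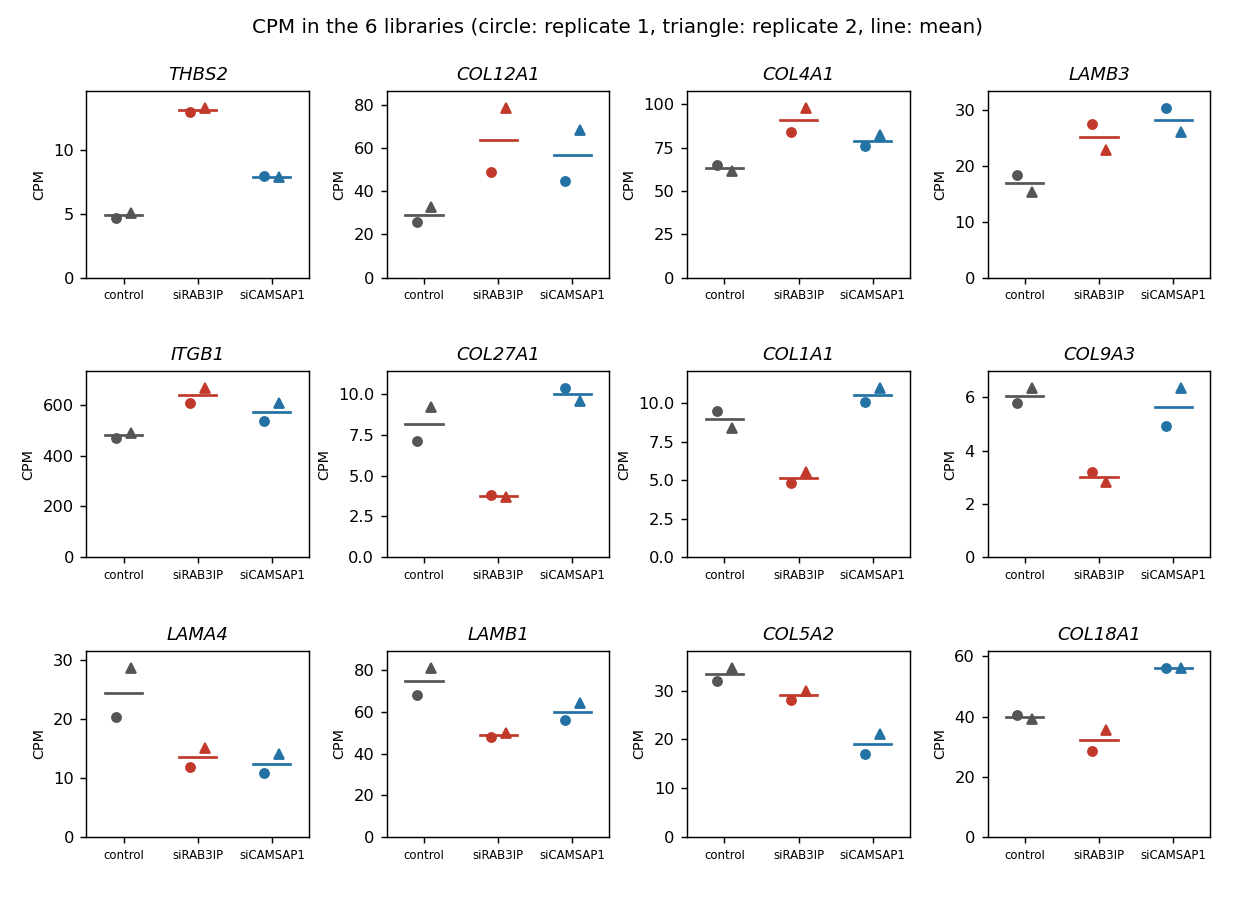
CPM of 12 called members in the 6 libraries, with replicate 1 as circles, replicate 2 as triangles and the group mean as a line, on axes that start at 0. THBS2, COL12A1, COL4A1, LAMB3 and ITGB1 lie above the control in both knockdowns, LAMA4, LAMB1 and COL5A2 below it, and COL27A1 and COL1A1 are low in siRAB3IP alone.

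Promoters of THBS2, COL12A1 and ITGB1, which rose in siRAB3IP, are shown to let their sequence be read beside these values. All of them hold the letters marked below. Those of LAMB3, COL17A1 and ITGAM, which also rose, hold none and are not shown, and neither is that of COL11A2. The windows shown here therefore do not stand for all 8 members that rose. RefSeq (GRCh38.p14) promoters, 250 bases before to 50 after the start, were found for 61 of the 80 members, among them all 8 that rose and 6 of the 10 that fell. Capitals mark GGAATG or its reverse complement CATTCC, the core letters bound by TEAD factors, a motif chosen after the sequences had been read. The windows are chr6:169253797-169254096 for THBS2, chr6:75206004-75206303 for COL12A1 and chr10:32958181-32958480 for ITGB1, all on the minus strand, and ITGB1 has a further start that is not shown.
THBS2: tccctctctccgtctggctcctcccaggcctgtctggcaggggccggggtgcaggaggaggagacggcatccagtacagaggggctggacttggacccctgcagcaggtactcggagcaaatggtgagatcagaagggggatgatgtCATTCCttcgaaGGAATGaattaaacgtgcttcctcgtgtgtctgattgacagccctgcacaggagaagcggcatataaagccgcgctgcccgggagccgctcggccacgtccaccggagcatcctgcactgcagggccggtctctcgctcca
COL12A1: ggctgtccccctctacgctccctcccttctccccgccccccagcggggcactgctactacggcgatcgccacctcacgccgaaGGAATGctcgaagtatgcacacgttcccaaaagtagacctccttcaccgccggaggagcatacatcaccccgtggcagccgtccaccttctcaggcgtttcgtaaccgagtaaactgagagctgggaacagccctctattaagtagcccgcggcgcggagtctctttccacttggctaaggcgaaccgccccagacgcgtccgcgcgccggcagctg
ITGB1: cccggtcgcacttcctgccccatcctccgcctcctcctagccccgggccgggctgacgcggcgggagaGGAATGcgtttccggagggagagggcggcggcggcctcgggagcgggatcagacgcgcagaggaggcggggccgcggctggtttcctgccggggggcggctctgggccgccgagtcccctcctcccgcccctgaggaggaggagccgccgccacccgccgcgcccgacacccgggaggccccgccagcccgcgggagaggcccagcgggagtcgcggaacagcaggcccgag
The THBS2 window held the motif at 103 and 91 bases before the start, in opposite orientation, and COL12A1 and ITGB1 held it at 167 and 182 bases before the start. On either strand it occurred in 4 of the 8 members that rose in siRAB3IP (COL11A2, COL12A1, ITGB1 and THBS2), 0 of the 6 that fell, 9 of the 61 members (14.8%) and 16.7% of 27305 genes with a promoter. The AP-1 letters TGANTCA occurred in 6.56% of members and 9.37% of genes, the kappaB motif in 24.6% and 13.3%, and TATAAA in 16.4% and 14.0%. Among the 8 members that rose and the 6 that fell, AP-1 letters occurred in 1 and 0, the kappaB motif in 2 and 2, and TATAAA in 3 and 0. A match describes the letters only, and whether a factor binds there was not measured. Since the TEAD letters were chosen after reading, their counts among members that rose or fell are no test.

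Among basement membrane collagens, COL4A1 rose in siRAB3IP while its partner COL4A2 did not pass. They encode the chains of the most widespread type IV network and lie head to head on chromosome 13. COL4A1 had 64.8 and 61.6 CPM in the control, 83.9 and 97.9 in siRAB3IP, and 75.8 and 82.1 in siCAMSAP1. Both knockdowns stood above the control in each library. Its log2 fold change was 0.52 ± 0.09 (adjusted p = 0.00347) in siRAB3IP, passing in all 15 alternatives that kept the groups. In siCAMSAP1 it was 0.32 ± 0.09 (adjusted p = 0.148), and the knockdowns differed by 0.20 ± 0.09 (adjusted p = 0.2). COL4A2 had 72.2 and 74.8 CPM in the control, 80.0 and 94.3 in siRAB3IP, and 86.8 and 97.2 in siCAMSAP1. Here too, both knockdowns stood above the control in each library. The log2 fold changes of COL4A2 were 0.25 ± 0.09 (adjusted p = 0.118) and 0.32 ± 0.09 (adjusted p = 0.164). Whether COL4A1 and COL4A2 changed by different amounts was not tested. Their RefSeq promoter windows share 226 bases, so both are shown, each on its own strand, at chr13:110307108-110307407 (minus, COL4A1) and chr13:110307034-110307333 (plus, COL4A2).
COL4A1: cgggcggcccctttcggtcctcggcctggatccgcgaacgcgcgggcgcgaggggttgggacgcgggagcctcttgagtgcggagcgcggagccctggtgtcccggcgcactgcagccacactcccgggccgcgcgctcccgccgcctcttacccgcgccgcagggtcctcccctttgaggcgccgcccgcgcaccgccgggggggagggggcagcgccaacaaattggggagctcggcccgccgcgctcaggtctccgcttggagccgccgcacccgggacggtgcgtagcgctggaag
COL4A2: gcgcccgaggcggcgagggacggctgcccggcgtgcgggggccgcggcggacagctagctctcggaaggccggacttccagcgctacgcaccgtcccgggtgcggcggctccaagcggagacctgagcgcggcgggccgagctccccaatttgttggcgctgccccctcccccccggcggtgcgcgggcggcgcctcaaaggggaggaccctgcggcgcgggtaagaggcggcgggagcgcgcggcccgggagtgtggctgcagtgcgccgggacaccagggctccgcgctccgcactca
Neither window holds the marked letters, so no base is in capitals.

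COL18A1 and COL6A1 separated the knockdowns. COL18A1, the basement membrane collagen from which endostatin is cut, had 40.5 and 39.1 CPM in the control, 28.7 and 35.6 in siRAB3IP, and 56.2 and 56.1 in siCAMSAP1. The order was siRAB3IP, control, siCAMSAP1 with no overlap. The knockdowns differed by -0.80 ± 0.10 log2 (adjusted p = 0.000572), in all 15 alternatives that kept the groups. Against control, siCAMSAP1 gave 0.50 ± 0.10 (adjusted p = 0.0366), a call that ended without control replicate 1 or 2 (adjusted p = 0.0652 and 0.17), without siCAMSAP1 replicate 1 or 2 (0.147 and 0.135) and with a minimum mean of 5 CPM (0.0652). Of its exon length 16.4% is shared with SLC19A1. COL6A1, a chain of the beaded-filament collagen VI, had 69.2 and 67.7 CPM in the control, 61.4 and 58.4 in siRAB3IP, and 82.2 and 76.3 in siCAMSAP1. It passed only between the knockdowns (-0.40 ± 0.08, adjusted p = 0.00813), and not without siRAB3IP replicate 2 (adjusted p = 0.0985) or siCAMSAP1 replicate 1 (adjusted p = 0.0949).

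COL12A1, a fibril-associated collagen that links fibrils to their surroundings, had the second largest rise among members above 5 CPM, and its replicates spread widely. Its level was 25.7 and 32.6 CPM in the control, 48.8 and 78.4 in siRAB3IP, and 44.7 and 68.3 in siCAMSAP1. Replicate 2 exceeded replicate 1 in every group, and both knockdowns lay above the control. The log2 fold change was 1.13 ± 0.21 (adjusted p = 0.00551) in siRAB3IP and 0.95 ± 0.21 (adjusted p = 0.0594) in siCAMSAP1, and the knockdowns differed by 0.17 ± 0.21 (adjusted p = 0.684). The siRAB3IP call ended without siRAB3IP replicate 2 (0.75 log2, adjusted p = 0.0563) and with edgeR's robust prior (adjusted p = 0.121). The authors' deposited table lists it for siCAMSAP1 as well, at a log2 fold change of 0.97.

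COL27A1 and COL1A1 fell in siRAB3IP. COL27A1, a long fibrillar chain of developing cartilage, had 7.09 and 9.19 CPM in the control, 3.83 and 3.70 in siRAB3IP, and 10.4 and 9.58 in siCAMSAP1. COL1A1, the main chain of type I collagen, had 9.52 and 8.37, 4.84 and 5.51, and 10.1 and 10.997 CPM. For both genes each siRAB3IP library lay below all 4 others. Against control COL27A1 fell by 1.11 ± 0.16 (adjusted p = 0.00113) and COL1A1 by 0.79 ± 0.14 log2 (adjusted p = 0.00404), and against siCAMSAP1 they were lower by -1.40 ± 0.16 (adjusted p = 0.000409) and -1.03 ± 0.14 (adjusted p = 0.000991). These 4 calls held in all 15 alternatives that kept the groups.

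COL5A2, a chain of the collagen V that nucleates and limits fibrils, fell in siCAMSAP1. It had 31.9 and 34.7 CPM in the control, 28.1 and 29.9 in siRAB3IP, and 17.1 and 21.1 in siCAMSAP1. The groups did not overlap. Its log2 fold change was -0.80 ± 0.11 (adjusted p = 0.00549) in siCAMSAP1, in all 15 alternatives that kept the groups, and -0.20 ± 0.11 (adjusted p = 0.271) in siRAB3IP. The knockdowns differed by 0.60 ± 0.11 (adjusted p = 0.00567), which did not pass without siRAB3IP replicate 2 (adjusted p = 0.0556) or siCAMSAP1 replicate 1 (adjusted p = 0.0544). Its partner COL5A1 did not pass in any comparison, at 41.0 and 50.6, 37.6 and 58.5, and 47.2 and 59.4 CPM. COL3A1, of reticular fibres, did not pass either.

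COL9A3 fell and COL17A1 and COL11A2 rose in siRAB3IP. COL9A3, a chain of the cartilage collagen IX, had 5.78 and 6.36 CPM in the control, 3.20 and 2.82 in siRAB3IP, and 4.92 and 6.35 in siCAMSAP1, and fell by 1.01 ± 0.18 log2 in siRAB3IP (adjusted p = 0.00362). It was lower than in siCAMSAP1 by -0.90 ± 0.18 (adjusted p = 0.00807), though not without siRAB3IP replicate 2 (adjusted p = 0.0779) or siCAMSAP1 replicate 2 (adjusted p = 0.0703). Its partner COL9A2 went from 6.98 and 5.95 CPM to 10.4 and 11.5 in siCAMSAP1, a log2 difference of 0.76 ± 0.16 that missed the threshold (adjusted p = 0.0512). COL17A1, the transmembrane collagen of hemidesmosomes, had 1.12 and 0.992 CPM in the control, 2.51 and 1.92 in siRAB3IP, and 1.68 and 1.52 in siCAMSAP1. COL11A2, a cartilage fibril chain, had 0.936 and 0.992, 2.27 and 1.78, and 1.57 and 1.17 CPM.

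Both low collagens rose by 1.07 log2 in siRAB3IP, with a standard error of 0.25 for COL17A1 (adjusted p = 0.0182) and 0.27 for COL11A2 (adjusted p = 0.0245). All knockdown libraries lay above the control. Neither gene passed between the knockdowns (adjusted p = 0.274 for COL17A1 and 0.216 for COL11A2). The COL17A1 call ended without control replicate 2 (adjusted p = 0.0932) or siRAB3IP replicate 1 (0.137), and the COL11A2 call without control replicate 1, control replicate 2 or siRAB3IP replicate 1 (0.0834, 0.0803 and 0.159). The other 28 collagens were not called in any comparison.

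In the laminins, LAMA4 and LAMB1 fell and LAMB3 rose in siRAB3IP. LAMA4, an alpha chain of vessel and muscle basement membranes, had 20.2 and 28.6 CPM in the control, 11.8 and 15.2 in siRAB3IP, and 10.8 and 14.0 in siCAMSAP1. All 4 knockdown libraries lay below the control. The log2 fold change was -0.86 ± 0.17 (adjusted p = 0.00809) in siRAB3IP and -0.98 ± 0.18 (adjusted p = 0.0226) in siCAMSAP1, and the knockdowns differed by 0.12 ± 0.18 (adjusted p = 0.757). The siRAB3IP call ended without control replicate 2 (adjusted p = 0.0627) or siRAB3IP replicate 1 (0.0744), and the siCAMSAP1 call without control replicate 2 (0.127) or siCAMSAP1 replicate 1 (0.112) and with a minimum mean of 5 CPM (0.0553).

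LAMB1, the beta chain of the widespread laminins of embryonic basement membranes, had 68.3 and 81.3 CPM in the control, 48.0 and 50.2 in siRAB3IP, and 56.2 and 64.3 in siCAMSAP1. It fell by 0.61 ± 0.10 log2 in siRAB3IP (adjusted p = 0.0025), in all 15 alternatives that kept the groups. In siCAMSAP1 it gave -0.31 ± 0.10 (adjusted p = 0.204), and the knockdowns differed by -0.29 ± 0.10 (adjusted p = 0.0916). LAMB3, the beta chain of the epithelial laminin-332, had 18.4 and 15.4 CPM in the control, 27.6 and 22.9 in siRAB3IP, and 30.4 and 26.2 in siCAMSAP1. Both knockdowns lay above the control and overlapped each other. The rise was 0.58 ± 0.13 (adjusted p = 0.011) in siRAB3IP and 0.75 ± 0.12 (adjusted p = 0.0165) in siCAMSAP1. It did not pass without control replicate 2 in either knockdown (adjusted p = 0.0793 and 0.106), nor without siRAB3IP replicate 1 (0.108) in siRAB3IP or siCAMSAP1 replicate 1 (0.09) in siCAMSAP1.

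LAMA3, an alpha chain of epithelial laminins, was not called, at a log2 fold change in siRAB3IP of 0.26 ± 0.11 (adjusted p = 0.141). LAMA5, the alpha chain of mature epithelial basement membranes, had 45.5 and 36.5 CPM in the control, 36.8 and 35.9 in siRAB3IP, and 56.5 and 49.7 in siCAMSAP1. It passed between the knockdowns (-0.55 ± 0.11, adjusted p = 0.00805), but not without siRAB3IP replicate 2 (adjusted p = 0.0758) or siCAMSAP1 replicate 1 (0.0731). LAMC1, the common gamma chain, had 246 and 277 CPM in the control, 277 and 275 in siRAB3IP, and 285 and 275 in siCAMSAP1, and LAMB2 had 38.7 and 47.2, 35.7 and 35.5, and 42.1 and 42.8. Neither passed in any comparison.

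Among integrins, the common beta chain ITGB1 rose in siRAB3IP. It had 469.8 and 488 CPM in the control, 606 and 666 in siRAB3IP, and 535 and 605 in siCAMSAP1. Every knockdown library lay above the control. The log2 fold change was 0.41 ± 0.09 (adjusted p = 0.0107) in siRAB3IP, a 1.33-fold rise, and 0.25 ± 0.09 (adjusted p = 0.249) in siCAMSAP1, and the knockdowns differed by 0.16 ± 0.09 (adjusted p = 0.315). The siRAB3IP call ended without siRAB3IP replicate 2 (adjusted p = 0.11).

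ITGB8 and ITGB7 fell in siRAB3IP. ITGB8, which with ITGAV binds latent TGF-beta, had 25.7 and 32.9 CPM in the control, 18.9 and 22.0 in siRAB3IP, and 26.3 and 32.4 in siCAMSAP1. Its siRAB3IP libraries were the lowest of the 6. It fell by 0.52 ± 0.14 log2 against control (adjusted p = 0.0286) and was lower than in siCAMSAP1 by -0.52 ± 0.14 (adjusted p = 0.0325). The first call ended without control replicate 2 (adjusted p = 0.223), siRAB3IP replicate 1 (0.192) or siRAB3IP replicate 2 (0.0558), and the other without siRAB3IP replicate 1 (0.201), siRAB3IP replicate 2 (0.0724) or siCAMSAP1 replicate 2 (0.211) and with a minimum mean of 5 CPM (0.0528). ITGB7, a leukocyte homing chain, had 2.70 and 3.24 CPM in the control, 1.56 and 1.65 in siRAB3IP, and 2.11 and 1.88 in siCAMSAP1. It fell by 0.89 ± 0.22 in siRAB3IP (adjusted p = 0.0195), though not without control replicate 2 (adjusted p = 0.128), siRAB3IP replicate 1 (0.1) or siRAB3IP replicate 2 (0.0833). For ITGB7 the difference between the knockdowns, -0.31 ± 0.22, did not pass (adjusted p = 0.448). ITGB5, another partner of ITGAV, had 49.2 and 47.9, 52.5 and 53.0, and 57.4 and 56.4 CPM and did not pass. ITGB3 and ITGB4 did not pass either, at 0.09 ± 0.41 and 0.08 ± 0.33 log2 in siRAB3IP (adjusted p = 0.923 and 0.913).

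Of the alpha chains ITGA3 and ITGA7, both laminin receptors with ITGB1, fell in siRAB3IP. ITGA3 had 16.5 and 15.8 CPM in the control, 13.3 and 10.97 in siRAB3IP, and 20.6 and 19.3 in siCAMSAP1. The order was siRAB3IP, control, siCAMSAP1 with no overlap. The knockdowns differed by -0.72 ± 0.12 (adjusted p = 0.00298), in all 15 alternatives that kept the groups. Against control ITGA3 fell by 0.41 ± 0.12 in siRAB3IP (adjusted p = 0.0417), a call lost in a fit of these groups alone (adjusted p = 0.0564) and without control replicate 1 (0.142), control replicate 2 (0.101), siRAB3IP replicate 2 (0.3) or siCAMSAP1 replicate 1 (0.0514). ITGA7 had 6.85 and 6.41 CPM in the control, 4.52 and 4.37 in siRAB3IP, and 5.85 and 6.02 in siCAMSAP1. Its difference between the knockdowns, -0.42 ± 0.15, did not pass (adjusted p = 0.1). Against control ITGA7 fell by 0.58 ± 0.14 in siRAB3IP (adjusted p = 0.0234). Leaving out control replicate 1, control replicate 2, siRAB3IP replicate 1 or siRAB3IP replicate 2 ended that call (adjusted p = 0.102, 0.0653, 0.0896 and 0.126).

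The most abundant alpha chains did not pass. ITGAV had 93.8 and 106 CPM in the control, 109.7 and 113 in siRAB3IP, and 116 and 131 in siCAMSAP1. ITGA6, a laminin receptor chain, had 61.4 and 62.7, 68.7 and 65.2, and 63.9 and 68.0 CPM. ITGA5, the fibronectin receptor chain, had 44.6 and 49.6, 57.1 and 50.8, and 60.1 and 55.7 CPM. For all 3 genes each knockdown library lay above both control libraries, with log2 fold changes from 0.09 to 0.31. ITGAM, a myeloid chain, was called higher in siRAB3IP from 0.161 and 0.0968 CPM in the control to 0.793 and 0.586 (2.41 ± 0.51 log2, adjusted p = 0.0104), from 6 and 4 counts to 30 and 22. ITGAM did not pass between the knockdowns (adjusted p = 0.601). Its call ended without control replicate 2 (adjusted p = 0.0754) or siRAB3IP replicate 1 (0.0833), and DESeq2 gave it no adjusted p.

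ITGB3BP is a centromere protein named for binding an integrin tail. It had 49.9 and 48.9 CPM in the control, 39.6 and 34.6 in siRAB3IP, and 51.6 and 50.04 in siCAMSAP1. Both siRAB3IP libraries were the lowest. It fell by 0.41 ± 0.09 against control (adjusted p = 0.0105), not without siRAB3IP replicate 2 (adjusted p = 0.128), and was lower than in siCAMSAP1 by -0.45 ± 0.09 (adjusted p = 0.00752), not without siRAB3IP replicate 2 (0.109) or siCAMSAP1 replicate 1 (0.0584). The ceramide transfer protein gene COL4A3BP and the integrin-binding adaptors ITGB1BP1 and ITGB1BP2 did not pass.

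Ratios of chain mRNAs per exon length are given as a description, for pairs chosen with these values known and with no test. The collagen pairs are chains that assemble with each other. LAMB3 with LAMB1, LAMA4 with LAMA5 and ITGA3 with ITGA5 are not partners but chains of the same kind that take the same place. COL5A2 to COL5A1 measured 1.22 and 1.07 in the control, 1.17 and 0.799 in siRAB3IP, and 0.566 and 0.555 in siCAMSAP1. COL4A1 to COL4A2 measured 0.898 and 0.825 in the control, 1.05 and 1.04 in siRAB3IP, and 0.875 and 0.845 in siCAMSAP1. The former pair was lowest in siCAMSAP1 and the latter highest in siRAB3IP.

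COL4A6 and COL4A5, a further head-to-head type IV pair with 347 bases between the genes on the X chromosome, gave 0.389 and 0.392 in the control, 0.565 and 0.510 in siRAB3IP, and 0.390 and 0.376 in siCAMSAP1. Neither gene passed alone, at 0.18 ± 0.12 log2 for COL4A6 (adjusted p = 0.399) and -0.27 ± 0.12 for COL4A5 (adjusted p = 0.189) in siRAB3IP. LAMB3 to LAMB1 went from 0.467 and 0.329 in the control to 0.996 and 0.793 in siRAB3IP and 0.941 and 0.708 in siCAMSAP1. LAMA4 to LAMA5 was 0.565 and 0.996 in the control, 0.408 and 0.537 in siRAB3IP, and 0.243 and 0.358 in siCAMSAP1. ITGA3 to ITGA5 was 0.285 and 0.246, 0.180 and 0.167, and 0.266 and 0.267. Each of these ratios separated at least 1 knockdown from the control without overlap. Groups this small can separate by chance, and how often other gene pairs do so was not calculated. Further chain pairs were calculated and are not shown. No conclusion is therefore drawn from the separation.

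**Figure D4:**
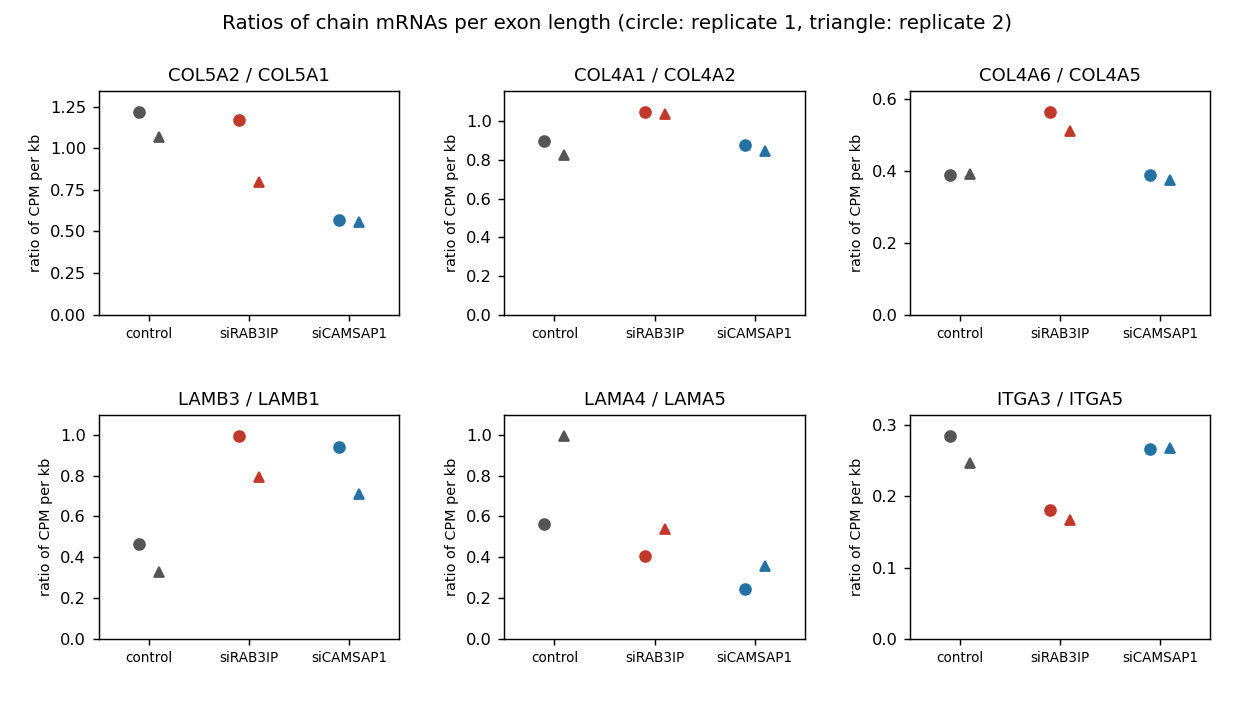
Ratios of the CPM per kilobase of exon of 6 chain pairs in each library, with replicate 1 as circles and replicate 2 as triangles, on axes that start at 0. COL5A2 to COL5A1 is lowest in siCAMSAP1 (0.566 and 0.555), and COL4A1 to COL4A2 and COL4A6 to COL4A5 are highest in siRAB3IP.

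Libraries numbered 2 carried more of these mRNAs than libraries numbered 1. Of the 80 members, 31 (38.8%) were higher in replicate 2 than in replicate 1 in all 3 groups, beside 20.6% of all genes tested, and 13 (16.2%) were lower in all 3, beside 21.1%. LAMA4 was higher by 0.50, 0.36 and 0.37 log2 in control, siRAB3IP and siCAMSAP1, COL12A1 by 0.34, 0.68 and 0.61, and ITGA1 by 0.34, 0.37 and 0.59. Within either number, THBS2 was higher in siRAB3IP than in control by 1.45 and 1.37 log2, COL12A1 by 0.93 and 1.26, and LAMA4 lower by -0.77 and -0.92. What the numbers stand for is not given in the sources used here.

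Genes around these chains were read from 5 lists with 176 entries. For comparison, 16.0% of protein-coding genes with at least 60 counts were called either way in siRAB3IP and 1.39% in siCAMSAP1. Of all genes tested, 6.39% were called higher and 5.24% lower in siRAB3IP, and 0.448% and 0.493% in siCAMSAP1. Enzymes and chaperones of collagen modification had 5 of 29 higher and 2 lower in siRAB3IP, and 1 higher in siCAMSAP1. COLGALT1, which glycosylates collagen lysines, had 135 and 119 CPM in the control, 184 and 188 in siRAB3IP, and 135.4 and 129.6 in siCAMSAP1 (0.55 ± 0.08 in siRAB3IP, adjusted p = 0.00146). P4HA2, a prolyl hydroxylase subunit, rose by 0.53 ± 0.10 (adjusted p = 0.00424), and the crosslinking enzyme LOXL1 fell by 0.46 ± 0.10 (adjusted p = 0.0125). P3H3, a homologue of prolyl 3-hydroxylases, rose in siRAB3IP by 0.41 ± 0.10 (adjusted p = 0.0235) and in siCAMSAP1 by 0.58 ± 0.10 (adjusted p = 0.0223).

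Of 36 tested basement membrane and other matrix glycoproteins, 5 were higher and 7 lower in siRAB3IP, and 2 higher and 1 lower in siCAMSAP1. The testican SPOCK1 had 3.13 and 3.53 CPM in the control, 8.65 and 8.33 in siRAB3IP, and 4.33 and 4.83 in siCAMSAP1, a rise of 1.35 ± 0.15 log2 in siRAB3IP (adjusted p = 0.000283). EFEMP2, an elastic fibre protein, fell there by 1.09 ± 0.16 (adjusted p = 0.0013). SMOC1, a calcium-binding basement membrane protein, fell in siCAMSAP1 by 1.40 ± 0.23 (adjusted p = 0.016) from 6.45 and 7.04 to 2.24 and 2.87 CPM. TINAGL1, a matricellular protein of basement membranes, rose in both, by 0.63 ± 0.10 (adjusted p = 0.00233) and 0.58 ± 0.10 (adjusted p = 0.0223).

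Beside 6.39% higher and 5.24% lower of all genes tested, matrix proteases and their inhibitors had 11 of 38 higher and 4 lower in siRAB3IP. Among them were ADAM19 (0.64 ± 0.09, adjusted p = 0.00124), ADAM15 (0.46 ± 0.09, adjusted p = 0.00529) and the protease inhibitor SERPINE2 (0.52 ± 0.13, adjusted p = 0.0245). In siCAMSAP1 0 were called by edgeR's quasi-likelihood test or limma-voom and 1 lower by DESeq2, where 7 were higher and 5 lower at an unadjusted p under 0.05 in edgeR. SERPINE2 differed between the knockdowns by 1.12 ± 0.14 (adjusted p = 0.000534).

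Of 39 focal adhesion genes only the actin regulator VASP passed in siRAB3IP (-0.41 ± 0.09, adjusted p = 0.00927), with 39.3 and 36.8 CPM in the control and 28.7 and 28.5 in siRAB3IP. In siCAMSAP1 0 passed in edgeR's quasi-likelihood test, DESeq2 or limma-voom, with 5 higher and 2 lower at an unadjusted p under 0.05 in edgeR. Between the knockdowns 5 of the 39 passed, with VCL (0.31 ± 0.09, adjusted p = 0.042) and TES (0.43 ± 0.08, adjusted p = 0.00472) higher in siRAB3IP and FERMT2 (-0.35 ± 0.09, adjusted p = 0.0317), VASP (-0.52 ± 0.09, adjusted p = 0.00297) and DOCK1, named after its value was seen, lower. Of protein-coding genes with at least 60 counts, 12.3% passed between the knockdowns. Of 22 other matrix receptors 6 were higher and 3 lower in siRAB3IP, and 3 higher and 1 lower in siCAMSAP1. The hyaluronan receptor CD44 had 78.5 and 74.2 CPM in the control, 181 and 156 in siRAB3IP, and 103.6 and 104.2 in siCAMSAP1, rising by 1.14 ± 0.09 (adjusted p = 2.01e-05) and 0.45 ± 0.09 (adjusted p = 0.0333). The heparan sulfate proteoglycan SDC4 rose by 1.0 ± 0.09 (adjusted p = 0.00011) and 0.78 ± 0.09 (adjusted p = 0.00248). HMMR, from the same list, had 91.8 and 89.0 CPM in the control, 56.4 and 47.3 in siRAB3IP, and 83.3 and 85.2 in siCAMSAP1. Its log2 fold change in siRAB3IP was -0.80 ± 0.09 against control (adjusted p = 0.000283) and -0.70 ± 0.09 against siCAMSAP1 (adjusted p = 0.000723). The endocytic receptor LRP1 fell by 0.78 ± 0.15 in siRAB3IP (adjusted p = 0.00663).

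The authors' deposited tables, which hold genes past their own threshold, list 13 members of 2192 genes for siRAB3IP (6 higher, 7 lower) and 12 members of 474 genes for siCAMSAP1 (9 higher, 3 lower). In the authors' deposited table for siRAB3IP, ITGA1, a collagen receptor chain, is listed at 0.39, while edgeR's quasi-likelihood test gave it 0.38 ± 0.17 (adjusted p = 0.186). In the authors' deposited table for siCAMSAP1, ITGAV is listed at 0.33, ITGB1 at 0.26, COL4A2 at 0.33, LAMA5 at 0.36 and LAMB1 at -0.29. It also lists COL12A1 at 0.97, COL4A1 at 0.32 and COL9A2 at 0.76, and none of these genes passed here in siCAMSAP1. Called here but not listed by the authors are COL11A2, COL17A1, ITGAM, ITGA3, ITGA7 and ITGB7 for siRAB3IP, and THBS2 for siCAMSAP1.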

How the data were processed

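Counts are fragments per gene over the exons of the annotation, made by the authors with featureCounts 1.6.0 on primary alignments without a strand setting, per the file headers, and coordinates are in hg19. The submitters' processing notes also name STAR and DESeq2, and their versions are not given in the sources used here. Tables that the authors deposited for genes past their threshold hold log2 fold changes, standard errors, a test score (the Wald statistic), p-values and normalized values (a signal, counts divided by 1 factor per library). They served here to name the libraries (each column matched 1 count column with a largest log2 deviation of 7.2e-15) and as values credited to them.

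Symbols came from GENCODE release 29 (52526 of 63677 genes matched). The test was edgeR 4.0.16 in R 4.3.3 (quasi-likelihood, TMM scaling, default filter, a model of 3 groups leaving 3 degrees of freedom) on 22331 genes, with Benjamini-Hochberg adjustment over all of them at 0.05. SE stands for a log2 fold change's standard error, taken as its absolute value divided by the square root of the test's F statistic. The SE therefore restates the test, whose spread is shared by all 6 libraries. The test was tried on simulated counts. Library totals were 37379217 to 39637733. Ratios within a replicate number used CPM plus 0.1.

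The members, the 5 further gene lists and the chain pairs were chosen with earlier results of these data known. The values of 1 member are not reported here. Values in every library are given for called members averaging at least 1 CPM and the 3 highest per kilobase in each family. From the further lists, up to 4 called genes per comparison with a mean of at least 5 CPM could be named, by size of change. As alternatives, scaling was by RLE or by the upper quartile, the filter was dropped or set at 5 CPM on average, a replicate block was added, only compared groups were fitted, DESeq2 1.42.0 or limma-voom (limma 3.58.1) was used, and each library was left out. Others were grouping by titles and, chosen after seeing the data, edgeR's robust prior. Promoters are RefSeq's (GRCh38.p14), matched by symbol. Tables and figures used Python 3.11.15, pandas 2.3.3 and matplotlib 3.10.9.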

Additional observations from a re-analysis of the deposited data

How the results depend on the processing

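Groups of 2 libraries and 3 residual degrees of freedom limit what could pass, and small changes of members below 1 CPM were not detectable at this depth. Of the calls of members, 11 passed in all 15 alternatives that kept the groups: THBS2, COL27A1, COL1A1, COL4A1 and LAMB1 in siRAB3IP, COL5A2 in siCAMSAP1, and THBS2, COL27A1, COL1A1, COL18A1 and ITGA3 between the knockdowns. The siRAB3IP call of COL9A3 passed in 14 of 14.

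With the replicate number as a block, 5371 genes were called for siRAB3IP, 1408 for siCAMSAP1 and 4630 between the knockdowns, with 17, 17 and 8 members higher and 17, 4 and 15 lower, among them 6 of the 23 integrin chains higher in siCAMSAP1. Deviations of same-numbered libraries from their group means correlated at 0.45 (control and siRAB3IP), 0.532 (control and siCAMSAP1) and 0.445 (both knockdowns) over 11784 genes. There are 2 pairs per comparison and no label that says what the numbers stand for, so the fit without the block was kept as the main one. Without a filter siCAMSAP1 had 560 genes and 7 members higher, and with DESeq2 382 genes. At a minimum mean of 5 CPM, 5 members were higher in siRAB3IP and 1 lower in siCAMSAP1. Fewer genes were tested there: COL11A2, COL17A1 and ITGAM, called higher in siRAB3IP in the main fit, averaged under 5 CPM and were left out. LAMA4 and COL18A1 were still tested and lost their siCAMSAP1 calls, and the cause of that loss was not tested. Leaving out 1 library, calls ranged from 1034 to 2491 genes for siRAB3IP, 67 to 210 for siCAMSAP1 and 620 to 2296 between the knockdowns. Members higher then ranged from 4 to 8, 0 to 5 and 1 to 2, and members lower from 5 to 11, 1 to 3 and 5 to 9.

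Grouped by titles, all of these counts were 0 in edgeR. Log2 fold changes turned sign there for siRAB3IP against control in COL11A2 (-0.33), COL17A1 (-0.45), COL1A1 (0.36), COL27A1 (0.84), COL4A1 (-0.11), COL9A3 (0.33), ITGA3 (0.29), ITGA7 (0.11), ITGAM (-0.65), ITGB1 (-0.07), ITGB7 (0.33), ITGB8 (0.41), LAMA4 (0.30), LAMB1 (0.24), LAMB3 (-0.00), ITGB3BP (0.17) and THBS2 (-0.44). Between the knockdowns they turned in COL18A1 (0.06), COL1A1 (0.16), COL27A1 (0.56), COL6A1 (0.15), COL9A3 (0.30), ITGA3 (0.27), ITGB8 (0.12), LAMA5 (0.12), ITGB3BP (0.25) and THBS2 (-0.70). These libraries hold other labels there by construction.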

Other observations

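Among low members, 3 that did not pass the test are given here, chosen after their values were seen. COL21A1 had 0.696 and 0.847 CPM in the control, 0.767 and 1.01 in siRAB3IP, and 0.309 and 0.406 in siCAMSAP1, a log2 difference of 1.30 ± 0.39 between the knockdowns (edgeR's quasi-likelihood test, adjusted p = 0.0558). COL16A1 had 0.829 and 1.23 CPM in the control, 1.005 and 1.86 in siRAB3IP, and 2.11 and 2.01 in siCAMSAP1 (0.99 ± 0.32 for siCAMSAP1 against control, adjusted p = 0.206). THBS4 had 1.82 and 1.74 CPM in the control and 1.08 and 1.01 in siRAB3IP (-0.76 ± 0.26, adjusted p = 0.0836).

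Chains under the count minimum were COL15A1 with 35 counts over the 6 libraries, COL20A1 with 11, COL22A1 with 8, COL6A5 with 13, ITGA8 with 32, ITGB6 with 42, ITGBL1 with 31 and LAMB4 with 7, beside COL1A2, COL8A1 and ITGB2.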
